A study of Triticum aestivum with 4 samples.

Results

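Cystathionine gamma-synthase is the plastid enzyme that commits carbon to methionine in plants, and the 10 assembled wheat root transcripts described here, of 147297 in all, carry its name. The rule took every transcript whose protein description holds "cystathionine gamma-synthase", whose best hit is in Aegilops, Triticum, Hordeum or Brachypodium, and whose value could be resolved by library, as was the case for 91482 transcripts. The 10 transcripts belong to 4 assembled genes. The assembled genes TRINITY_DN1078_c0_g1 and TRINITY_DN18538_c0_g1, with 4 transcripts each, were named in advance because their change after hypergravity was already known. The other 2, TRINITY_DN18977_c0_g1 and TRINITY_DN64413_c0_g1, have 1 transcript each and met the same rule. Since the choice drew on the contrast reported below, the members' levels and fold changes are a description and carry no test.

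RNA came from roots of bread wheat (Triticum aestivum, genotype UAS-375) that were 45 days old. Plants of the hypergravity group grew from seeds held at 10 g for 12 h before sowing, and plants of the control group grew from untreated seeds. Both groups were raised in a greenhouse in pipes, and each group had 2 stranded mRNA libraries. Nothing in the labels tells if replicate libraries were made from different plants, so p-values measure only the spread between these libraries, which may be technical. The recovered counts summed to 46604327 and 47850533 in the hypergravity libraries and to 49424285 and 53346750 in the control libraries. Among root markers, SCARECROW, whose text search also takes in SCARECROW-like proteins, summed to 59413 and 61733 normalized counts in hypergravity and 58377 and 64371 in control over 91 transcripts, of which 10 were called higher and 21 lower. The high-affinity nitrate transporter 2 summed to 10802 and 9427 in hypergravity and 9579 and 11180 in control, with 4 of 20 transcripts called higher and 0 lower, and SHORT-ROOT, with 1 transcript, stood between 74.1 and 127 over the 4 libraries. The text searches for Casparian strip membrane protein and root cap matched 0 transcripts, as did ribulose bisphosphate carboxylase small, a leaf marker. Chlorophyll a-b binding proteins, also of leaves, summed to 142 and 106 in hypergravity and 107 and 67.6 in control. Photosystem II 10 kDa polypeptide, with 2 of 2 transcripts called higher, summed to 1600 and 1386 in hypergravity and 1066 and 1083 in control. The leaf list as a whole, of 5 transcripts with 2 called higher and 0 lower, summed to 1741 and 1492 in hypergravity and 1173 and 1151 in control. The part of leaf or other tissue in the results below was not tested.

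The enzyme uses pyridoxal phosphate to join O-phosphohomoserine with cysteine, giving cystathionine. Cystathionine beta-lyase then releases homocysteine, and methionine synthase adds a methyl group to form methionine. Threonine synthase draws on the same O-phosphohomoserine, so the enzyme stands at a branch point of the aspartate family of amino acids. Most methionine that is not built into protein becomes S-adenosylmethionine, the methyl donor and the precursor of ethylene, polyamines and nicotianamine. In Arabidopsis the mRNA of this enzyme is itself degraded when S-adenosylmethionine is abundant.

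All 10 transcripts had the same closest Swiss-Prot entry, P55217, and no other transcript with library values did. The Pfam domain PF01053, of pyridoxal phosphate enzymes of cysteine and methionine metabolism, was listed for 9 of the 10. The exception was TRINITY_DN64413_c0_g1_i1, which at 777 bases is the shortest. By RefSeq hit the transcripts fell into 3 sets, all in goatgrass, Aegilops tauschii, a diploid relative that gave wheat one of its subgenomes. A cystathionine gamma-synthase 1, chloroplastic-like protein (XP_020183688.1) was the hit of 7 transcripts, all in the genes DN1078_c0_g1 and DN18538_c0_g1. A probable cystathionine gamma-synthase 2 (XP_020183686.1) was the hit of 1 transcript, TRINITY_DN18538_c0_g1_i15. The cystathionine gamma-synthase 1, chloroplastic isoform X1 protein (XP_020188287.1) was the hit of TRINITY_DN18977_c0_g1_i5 and TRINITY_DN64413_c0_g1_i1. None of the 3 accessions is listed in the wheat gene table used here, so no wheat gene symbol or position is given.

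The sets differed in what they did. Over the 8 transcripts of the first 2 hits the log2 fold change of hypergravity against control lay between 3.30 and 3.66, and over the 2 transcripts of the third hit it was 0.15 and 0.33. These 8 were among the 19 transcripts with a hit in the 4 genera, of 59378, whose log2 fold change was above 3. They ranked between 7 and 30 by fold change among all 91482 transcripts, whereas TRINITY_DN18977_c0_g1_i5 ranked 19669 and TRINITY_DN64413_c0_g1_i1 ranked 31629. Of the 10 transcripts, 9 were called higher and 0 lower at an adjusted p under 0.05, against 13.5% of all transcripts called higher and 11.9% called lower. Because the members were chosen on this contrast, nothing is read from that count. In bulk roots, more cells that make an mRNA and more of it per cell cannot be told apart.

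**Figure D1:**
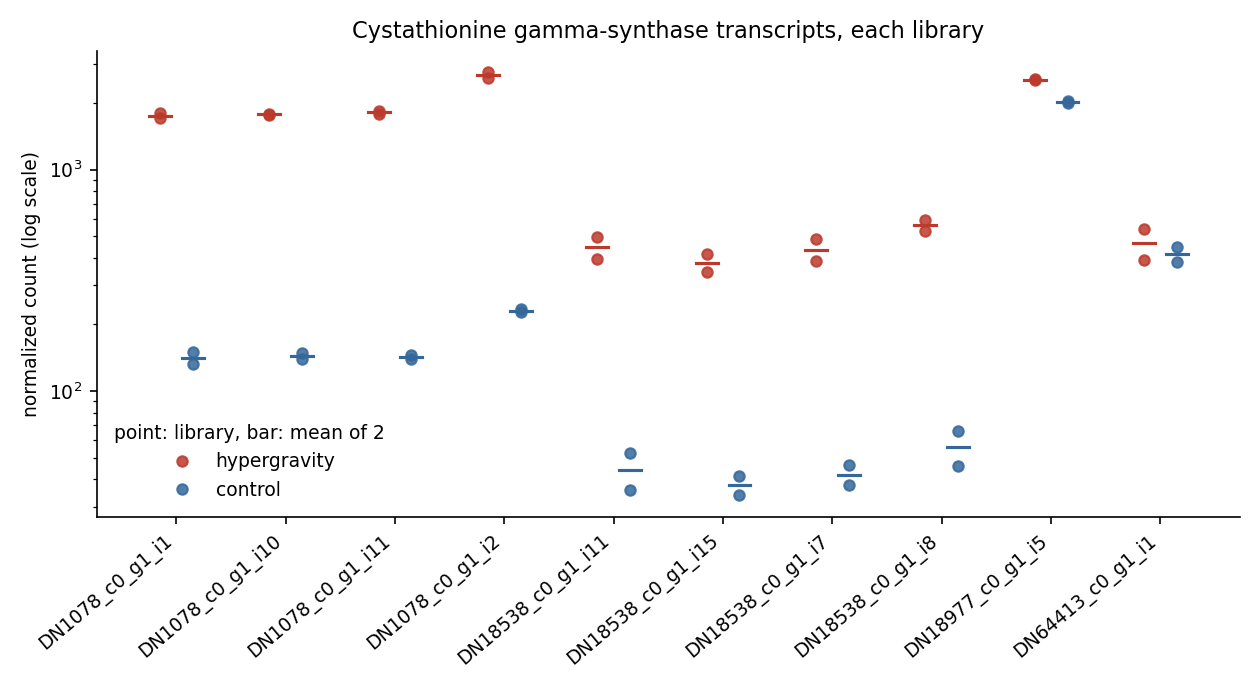
Normalized count (log scale) of each of the 10 cystathionine gamma-synthase transcripts in each library, with points for libraries and short bars for the mean of 2. The 8 transcripts of DN1078_c0_g1 and DN18538_c0_g1 stand apart between groups by a ratio of means of 10 to 12.7, DN18977_c0_g1_i5 by a ratio of 1.25, and the groups of DN64413_c0_g1_i1 overlap.

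DN1078_c0_g1 was the more strongly expressed of the rising pair of genes. Its longest transcript, TRINITY_DN1078_c0_g1_i11 (1698 bases), had 1784 and 1843 normalized counts in hypergravity and 146 and 139 in control. TRINITY_DN1078_c0_g1_i10 (1357 bases) had 1775 and 1788 in hypergravity and 148 and 140 in control. TRINITY_DN1078_c0_g1_i1 (1021 bases) had 1712 and 1800 in hypergravity and 150 and 132 in control. These 3 transcripts thus had nearly the same normalized count in every library although their lengths differ. TRINITY_DN1078_c0_g1_i2 (1556 bases) was higher in every library, at 2584 and 2764 in hypergravity and 234 and 227 in control. Both hypergravity libraries lay far above both control libraries for all 4 transcripts, and libraries of the same group lay close together. Hypergravity over control, the ratio of means ran from 11.6 for i2 to 12.7 for i11, and the log2 fold changes from 3.53 ± 0.10 to 3.66 ± 0.11 (SE, n = 2 libraries per group).

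DN18538_c0_g1 stood lower in both groups and rose by a like ratio. TRINITY_DN18538_c0_g1_i8 (1214 bases) had 595 and 529 normalized counts in hypergravity and 66.1 and 46.0 in control. TRINITY_DN18538_c0_g1_i11 (1032 bases) had 499 and 395 in hypergravity and 52.3 and 35.7 in control. TRINITY_DN18538_c0_g1_i7 (1163 bases) had 484 and 386 in hypergravity and 46.3 and 37.6 in control. In each of these the library called a was above the library called b within both groups. The groups did not overlap, as in 63.9% of all transcripts. TRINITY_DN18538_c0_g1_i15 (1545 bases), the 1 transcript with a cystathionine gamma-synthase 2 hit, had 414 and 344 in hypergravity and 41.4 and 33.8 in control, a change of 3.30 ± 0.19 (SE). The other 3 changed by 3.32 to 3.34, each with an SE of 0.19 or 0.22. The lowest raw count behind these values was 36, in a control library, and it is the lowest of the 10 transcripts.

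Isoforms of a gene moved together. Within DN1078_c0_g1, i2 held 33.3% ± 0.588 of the gene's normalized count in hypergravity and 35.0% ± 0.771 in control, and the other 3 held between 21.9% and 22.6% in hypergravity and between 21.4% and 21.9% in control (mean and SD, n = 2). Within DN18538_c0_g1, i8 held 30.9% ± 1.49 in hypergravity and 31.1% ± 1.41 in control. The 4 transcripts of a gene are therefore not separate observations, and the way in which reads common to several isoforms were divided is not stated by the labels. Summed over its transcripts, DN1078_c0_g1 had 8025 ± 240 normalized counts in hypergravity and 658 ± 27.3 in control, a log2 fold change of 3.61 ± 0.09 (SE). DN18538_c0_g1 had 1824 ± 239 in hypergravity and 180 ± 37.4 in control, a change of 3.35 ± 0.16 (SE). In the fit of summed genes 14.3% of all 47167 assembled genes were called higher and 12.3% lower. Bread wheat carries near copies of most genes on its subgenomes, and both rising genes hit the same goatgrass protein, so the split of reads between them is uncertain.

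The genes whose hit is the chloroplastic isoform X1 protein behaved otherwise. TRINITY_DN18977_c0_g1_i5, at 3236 bases the longest member, had 2531 and 2559 normalized counts in hypergravity and 2009 and 2047 in control. Its groups did not overlap, as in 63.9% of all transcripts, and its ratio of means was 1.25. The log2 fold change was 0.33 ± 0.08 (SE), and without the mean-variance trend this transcript was no longer called higher. The call was also lost without control a, at a change of 0.31, and without control b, at 0.34. TRINITY_DN64413_c0_g1_i1 had 538 and 392 in hypergravity and 383 and 449 in control. Here the control values lay on both sides of the lower hypergravity value, and the change was 0.15 ± 0.16 (SE). Without hypergravity a its change was -0.08 and without hypergravity b it was 0.38, so 1 library decides its direction.

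The order of the levels per length turned over between the groups. In hypergravity the highest single transcripts were TRINITY_DN1078_c0_g1_i1 at 1720 ± 60.7 and TRINITY_DN1078_c0_g1_i2 at 1718 ± 81.6 normalized counts per kb (SD, n = 2), which did not differ beyond their spread. TRINITY_DN18977_c0_g1_i5 followed the 4 DN1078_c0_g1 transcripts at 786 ± 6.1 and TRINITY_DN64413_c0_g1_i1 at 599 ± 133. As single transcripts, the 4 of DN18538_c0_g1 came last, between 245 and 463. Summed over its transcripts, DN18538_c0_g1 was at 1516 ± 201 per kb in hypergravity, above both genes with 1 transcript. In control TRINITY_DN18977_c0_g1_i5 was first at 627 ± 8.4, and TRINITY_DN64413_c0_g1_i1 was next at 535 ± 60.5 per kb. The single DN1078_c0_g1 transcripts came below them, between 83.9 and 148, and the DN18538_c0_g1 transcripts between 24.3 and 46.2. Summed per gene, control DN1078_c0_g1 was at 476 ± 22 per kb, within the spread of DN64413_c0_g1, and control DN18538_c0_g1 at 149 ± 31.8. Control i1 (138 ± 12.1) and i2 (148 ± 2.89) of DN1078_c0_g1 lay within their spread of each other, as did control i8 (46.2 ± 11.7) and i11 (42.6 ± 11.3) of DN18538_c0_g1.

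**Figure D2:**
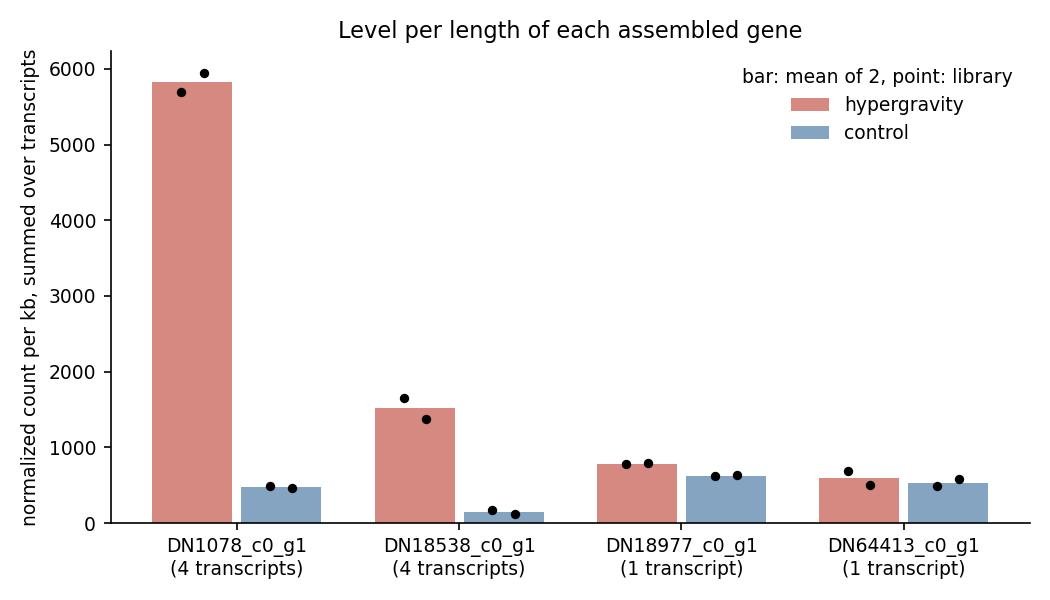
Normalized count per kb summed over the transcripts of each assembled gene, with bars for the mean of 2 libraries and points for libraries. DN1078_c0_g1 reached 5819 in hypergravity against 476 in control, and DN18977_c0_g1 786 in hypergravity against 627 in control, with sums over several isoforms in the first and 1 transcript in the second.

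Over the 10 transcripts together the normalized count was 12917 and 12800 in hypergravity and 3275 and 3288 in control, a ratio of means of 3.92. DN1078_c0_g1 held 62.4% ± 2.27 of this sum in hypergravity and 20.1% ± 0.89 in control (SD, n = 2). DN18977_c0_g1 held 19.8% ± 0.281 in hypergravity and 61.8% ± 0.651 in control. DN18538_c0_g1 held 14.2% ± 1.77 in hypergravity and 5.48% ± 1.16 in control. Most of the counts, not corrected for length, thus belonged to DN1078_c0_g1 in hypergravity libraries and to DN18977_c0_g1, the longest member, in control libraries. Per kb the ratio of means of the sum was 4.88. In control the per-kb sum was 35.1% ± 0.174 DN18977_c0_g1, 29.9% ± 3.13 DN64413_c0_g1, 26.7% ± 1.45 DN1078_c0_g1 and 8.36% ± 1.85 DN18538_c0_g1. None held most of it. DN64413_c0_g1 and DN1078_c0_g1 both held 27.7% in control a, so their order is not resolved. In hypergravity DN1078_c0_g1 held 66.8% of the per-kb sum.

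A further 5 transcripts carried the name without values by library, and for these the table gives 1 value per group, taken as FPKM, the unit of the file's column names. One has a hit in the 4 genera: TRINITY_DN18538_c0_g1_i16, a 617-base isoform, was at 0.3 FPKM in hypergravity and listed at 0 in control as the authors' values. It lies just outside the rule, and TRINITY_DN18538_c0_g1_i15, with the lowest level of those inside, has 379 ± 49.5 normalized counts in hypergravity and 37.6 ± 5.37 in control, on a scale that cannot be set beside FPKM. The other 4 have hits outside the 4 genera. TRINITY_DN1078_c0_g2_i1 (Setaria italica hit), of the same assembly cluster as DN1078_c0_g1, was at 68.93 FPKM in hypergravity and 0.02 in control. TRINITY_DN1078_c0_g2_i4 (Setaria viridis hit) was at 5.66 in hypergravity and listed at 0 in control. TRINITY_DN18977_c0_g1_i4 (maize hit), from the assembled gene whose goatgrass-hit isoform changed by 0.33 on the log2 scale, was at 16.8 in hypergravity and 0.27 in control. A transcript with an algal hit (Monoraphidium neglectum) was at 2.45 in hypergravity and 0.32 in control.

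Among transcripts with 1 value per group, higher values in hypergravity were general where the best hit is a panicoid grass. Panicoid grasses are the subfamily of Setaria, Panicum, sorghum and maize. Of 13329 such transcripts with 1 value per group, 96.7% were higher in hypergravity, against 52.3% of 10101 with hits in the 4 genera. Panicoid-hit transcripts with library values did not share this: of 2544, 19.3% were called higher and 10.8% lower. Their median log2 fold change was 0.06. With library values and hits in the 4 genera, 13.2% were called higher and 13% lower. An FPKM under 1 in control with at least 5 in hypergravity was found for 3442 panicoid-hit transcripts, and the converse for 2. The same counts were 275 and 16 for hits in the 4 genera, and 1057 and 226 for other or no hits. Of transcripts with a hit in the 4 genera, 4623 lay in an assembly cluster that also held such a panicoid-hit transcript. Of these 4623, 19.9% were called higher and 13.8% lower, against 12.6% and 13% of the other 54755. The median log2 fold changes were 0.00 for the 4623 and -0.02 for the 54755. The clusters of DN1078_c0_g1 and DN18977_c0_g1 held such a transcript and those of DN18538_c0_g1 and DN64413_c0_g1 did not. Log2 fold changes above 3 were found for 5 of the 4623, of which 4 are the DN1078_c0_g1 transcripts, and for 14 of the 54755, of which 4 are the DN18538_c0_g1 transcripts. The species of origin of the RNA, and its part in the rise of the members, was not tested.

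Other enzymes of the methionine pathway had smaller fold changes than the rising genes. The rising genes were named for their change, so nothing is read from that difference. Over 12 lists of pathway enzymes, 117 transcripts with hits in the 4 genera had library values, and 10 of them (8.55%) were called higher and 23 (19.7%) lower by limma. The 10 lie in 7 assembled genes and the 23 in 18. Over all transcripts with hits in the 4 genera, 13.2% were higher and 13% lower. The median log2 fold change of the 117 was -0.04, against -0.02 for those transcripts, and the largest rise was 0.89. The counts depend on the libraries: 3 were higher without control a, 4 without control b and 5 without hypergravity b, and 13 were lower without control b and 15 without hypergravity b. With hits in any species 27 of 171 were higher and 27 lower. In 45 further panicoid-hit transcripts of these lists with 1 value per group, 44 were higher in hypergravity.

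**Figure D3:**
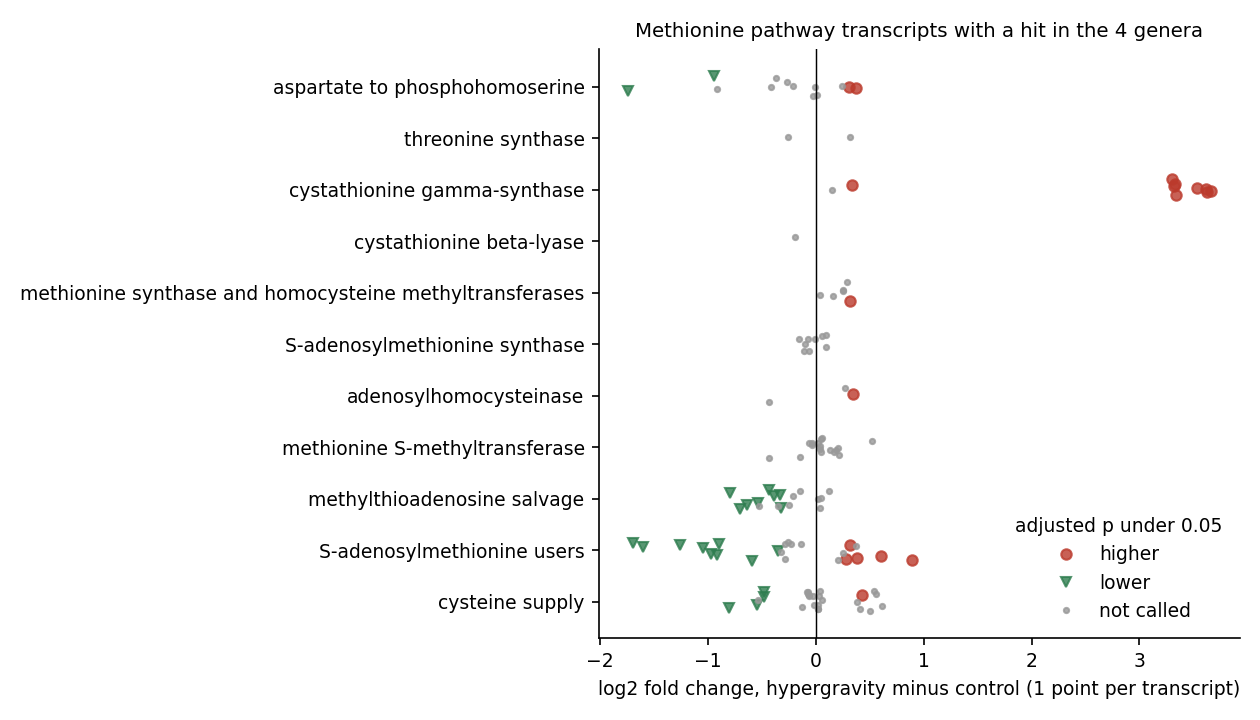
Log2 fold change of hypergravity minus control for each transcript with a hit in the 4 genera, by step of the methionine pathway, marked by whether it was called at an adjusted p under 0.05. Of the cystathionine gamma-synthase transcripts 8 lie above 3, and every other step lies between -1.74 and 0.89.

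Upstream of the branch point, the enzymes that turn aspartate into phosphohomoserine had 2 transcripts higher and 2 lower of 13. The 2 higher are isoforms of 1 assembled gene and the 2 lower of another. Over all transcripts with hits in the 4 genera, 13.2% were called higher and 13% lower. A homoserine kinase-like transcript (TRINITY_DN4148_c1_g1_i3), for the enzyme that makes the O-phosphohomoserine used here, had 1313 and 1387 normalized counts in hypergravity and 1055 and 1032 in control. It changed by 0.37 ± 0.09 (SE) with an adjusted p of 0.0142 from limma, which was above 0.05 without control a, control b, hypergravity b or the mean-variance trend. A further homoserine kinase-like transcript (TRINITY_DN15358_c0_g1_i6) had 282 and 285 in hypergravity and 821 and 1092 in control, a change of -1.74 ± 0.14 (SE) with an adjusted p of 2.16e-05 from limma. Other transcripts of that assembled gene have PIN-LIKES 7-like hits, so its assembly joins unlike proteins, and all 4 of its transcripts were called lower.

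Neither threonine synthase transcript, of the competing branch, was called. TRINITY_DN15112_c0_g1_i8 had 783 and 784 normalized counts in hypergravity and 855 and 1024 in control, with a change of -0.26 ± 0.11 (SE). TRINITY_DN46606_c0_g1_i2 had 151 and 161 in hypergravity and 116 and 134 in control, with a change of 0.32 ± 0.17 (SE). The groups do not overlap in either, as in 63.9% of all transcripts, and the signs are opposite.

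Cystathionine beta-lyase, which takes the product on to homocysteine, was not called either. Its 1 transcript with a goatgrass hit (TRINITY_DN3204_c0_g3_i1) had 750 and 772 normalized counts in hypergravity and 880 and 860 in control, a change of -0.19 ± 0.09 (SE) with an adjusted p of 0.17 from limma. Besides the cystathionine gamma-synthases, this transcript and 3 with cork oak hits were the only ones with library values and the Pfam domain PF01053, and 0 of these 4 were called or had an unadjusted p under 0.05. Their adjusted p from limma lay between 0.15 and 0.403.

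At the last step, 4 of 11 methionine synthase and homocysteine methyltransferase transcripts with hits in any species were called higher and 0 lower. Of the 6 with hits in the 4 genera, 1 was called higher. It was TRINITY_DN7327_c0_g1_i5, a methionine synthase fragment of 930 bases, with 6932 and 7471 normalized counts in hypergravity and 5667 and 5878 in control, a change of 0.32 ± 0.09 (SE). Its adjusted p of 0.0258 from limma was above 0.05 without control a, control b, hypergravity b or the trend. Of 9 S-adenosylmethionine synthase transcripts, which use methionine, 0 were called, with log2 fold changes from -0.16 to 0.09, and 0 had an unadjusted p under 0.05 by limma. Over hits in any species 6 of 24 of these were higher and 1 lower. Of 3 adenosylhomocysteinase transcripts, which return homocysteine after methyl transfer, 1 was called higher. This was TRINITY_DN1726_c0_g1_i10, with 9386 and 10126 normalized counts in hypergravity and 7335 and 8077 in control, and its adjusted p of 0.0259 was above 0.05 without control a, control b, hypergravity b or the trend. Of 17 methionine S-methyltransferase transcripts, for the enzyme that makes the transport form S-methylmethionine, 0 were called, with log2 fold changes from -0.44 to 0.52, and 1 had an unadjusted p under 0.05 by limma.

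Salvage of methylthioadenosine, which returns the sulfur of used S-adenosylmethionine to methionine, had 8 of 17 transcripts lower and 0 higher by limma, with a median of -0.33, and the 8 lie in 6 assembled genes. Among all transcripts with hits in the 4 genera 13% were lower and 13.2% higher. At an unadjusted p under 0.05, 10 were lower and 0 higher. The largest fall, of a 1,2-dihydroxy-3-keto-5-methylthiopentene dioxygenase 2 (TRINITY_DN90483_c0_g1_i1), had 325 and 241 normalized counts in hypergravity and 458 and 522 in control. That transcript changed by -0.80 ± 0.16 (SE) with an adjusted p of 0.00424 from limma. Of 23 transcripts for enzymes that use S-adenosylmethionine in the ethylene, polyamine and nicotianamine routes, 5 were higher and 9 lower. The 5 lie in 3 assembled genes and the 9 in 8. A 1-aminocyclopropane-1-carboxylate synthase-like transcript (TRINITY_DN11524_c0_g1_i1), for the enzyme that makes the ethylene precursor, had 929 and 862 in hypergravity and 426 and 548 in control, a change of 0.89 ± 0.13 (SE) with an adjusted p of 0.00083 from limma. Other goatgrass-hit isoforms of that assembled gene were at 0.60 (i11, called higher), -0.29 (i5) and -0.32 (i12), the last 2 not called. Nicotianamine synthase 1 (TRINITY_DN9994_c0_g1_i1) had 228 and 143 in hypergravity and 463 and 746 in control, a change of -1.70 ± 0.25 (SE) with an adjusted p of 0.000794 from limma.

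Cysteine, the sulfur donor of the reaction, is made by serine acetyltransferase and cysteine synthase, and of their 26 transcripts 1 was higher and 4 were lower. The 4 lie in 3 assembled genes. A mitochondrial bifunctional cyanoalanine synthase/cysteine synthase (TRINITY_DN13638_c0_g2_i3) had 2022 and 2011 normalized counts in hypergravity and 1505 and 1485 in control, a change of 0.43 ± 0.09 (SE) with an adjusted p of 0.00477 from limma, or 0.0672 without the mean-variance trend. A probable serine acetyltransferase 4 (TRINITY_DN97228_c0_g1_i2) had 182 and 116 in hypergravity and 210 and 315 in control. Its adjusted p of 0.0328 from limma was above 0.05 without control b (0.113), hypergravity b (0.195) or the trend (0.119). The searches for methionine gamma-lyase, and for cystathionine gamma-lyase or beta-synthase, matched 0 transcripts with library values and a hit in the 4 genera.

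Profiles most like the rising genes were sought among 28615 assembled genes with a hit in the 4 genera, as the smallest Euclidean distance between log2 values centred over the 4 libraries. Nearest to DN1078_c0_g1, at a distance of 0.13, was a gene for the immune receptor RPM1-like (TRINITY_DN5404_c0_g1), with 839 and 924 normalized counts in hypergravity and 79.9 and 67.6 in control. An uncharacterized protein gene (TRINITY_DN828_c0_g1) followed at 0.20, with 8368 and 8745 in hypergravity and 835 and 781 in control. The next were 2 genes for obtusifoliol 14-alpha demethylase-like enzymes of sterol synthesis, TRINITY_DN1703_c0_g1 at 0.28 and TRINITY_DN473_c0_g2 at 0.34. DN18538_c0_g1 was the fifth, at 0.42.

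The same 4 genes other than a cystathionine gamma-synthase were nearest to DN18538_c0_g1, in the order TRINITY_DN1703_c0_g1 (0.33), TRINITY_DN828_c0_g1 (0.34), TRINITY_DN5404_c0_g1 (0.38) and TRINITY_DN473_c0_g2 (0.39). A vacuolar amino acid transporter 1-like gene (TRINITY_DN55104_c0_g1) was the fifth at 0.41, with 219 and 209 normalized counts in hypergravity and 29.6 and 23.5 in control. With 4 libraries in 2 groups, a small distance says little more than that the ratio between groups is alike.

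**Figure D4:**
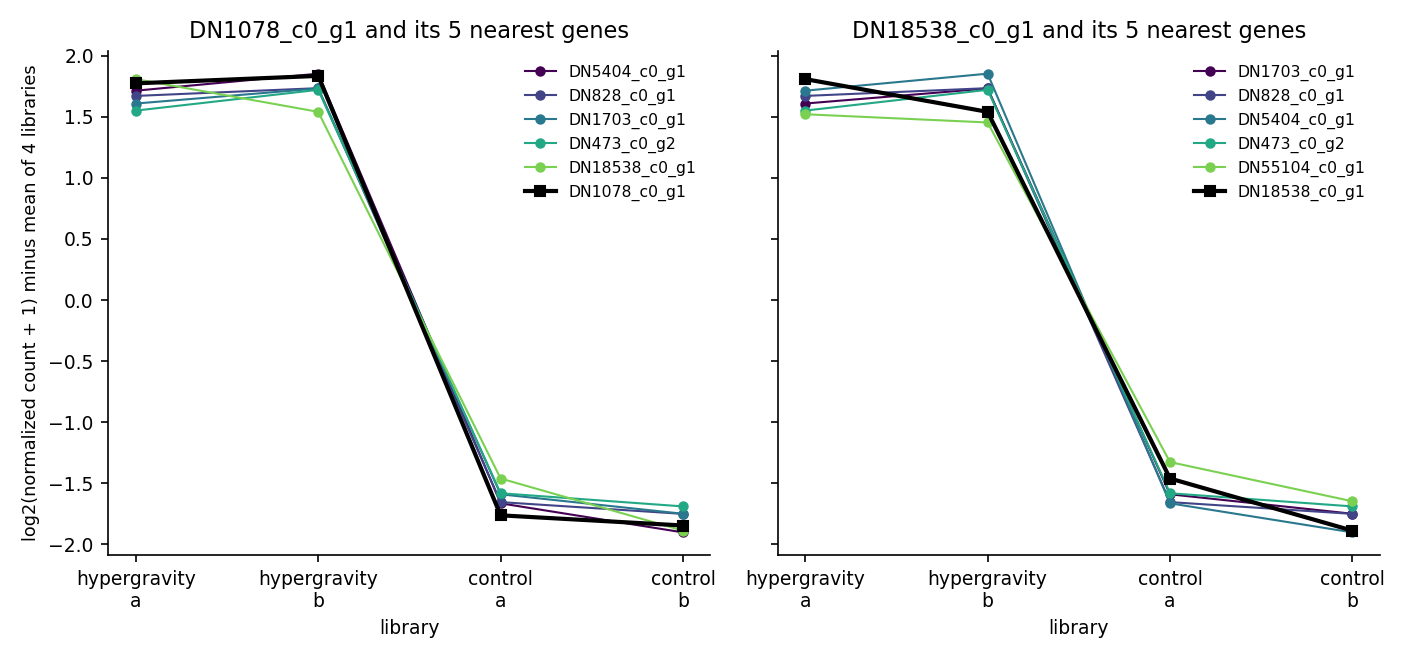
Log2(normalized count + 1) minus its mean over the 4 libraries, for each rising cystathionine gamma-synthase gene (black squares) and its 5 nearest genes (circles, lines only join the libraries of a gene). Nearest distances are 0.13 to 0.42 for DN1078_c0_g1 and 0.33 to 0.41 for DN18538_c0_g1, and every gene shown is high in both hypergravity libraries and low in both control libraries.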

How the data were processed

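The table deposited by the authors gives each transcript its length, a best protein hit and 1 value per group in columns named FPKM, per the file headers. RSEM is named, without a version, in the submitters' processing notes. Apart from TRINITY in the transcript names, assembler and aligner names are absent from the labels. The deposited values are a signal of 2 kinds. In 91482 rows with over 2 decimals, each equals the sum over 2 libraries of a whole count divided by a size factor. Every such sum (100%) split into exactly 1 pair of counts within a tolerance of 1e-09, and the second-best pair erred by at least 4.67e-07. The size factors equalled the median-of-ratios factors of the recovered counts. Library a of each group is the one with the smaller size factor, and the names a and b carry no replicate number. In the other 55815 rows the values have at most 2 decimals and were taken as FPKM per group, not tested. No recovered count was under 9. Intervals from counts would cover counting error only and are not given.

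Normalized counts, log2(value + 1), were fitted with limma 3.58.1 in R 4.3.3 (eBayes with a mean-variance trend), for transcripts and for assembled genes summed over transcripts. Benjamini-Hochberg adjustment ran over all 91482 transcripts or 47167 genes, with calls at an adjusted p under 0.05. The fit had 2 residual and 7.91 prior degrees of freedom. On simulated data for this comparison (91482 transcripts) it recovered 32 of 67 transcripts raised 1.5-fold, 63 of 67 raised 2-fold and 66 of 66 raised 4-fold, and called 10 unchanged ones. The simulation gave every transcript the same dispersion, from the spread between hypergravity libraries, and raised only transcripts above a set mean level. It thus does not show how the fit performs where the spread differs between transcripts. No count model was run, since the whole counts are inferred from sums. The members and the pathway lists were chosen with earlier results of these data known. The pattern for methionine synthase was narrowed after its values were seen, to leave out S-adenosylmethionine synthases. Named pathway transcripts are the largest called rise and fall of each list, and lists of at most 2 uncalled transcripts are given whole. Alternatives were pseudocounts of 0.5 and 10, a mean of at least 50, scaling by total count, quantile normalization, no trend and leaving out each library.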

Additional observations from a re-analysis of the deposited data

Results flagged for a closer look

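The 5 cystathionine gamma-synthase transcripts that have 1 value per group, and so entered no comparison, were each higher in hypergravity than in control as the authors' FPKM values. TRINITY_DN1078_c0_g2_i1 was at 68.93 in hypergravity and 0.02 in control, TRINITY_DN18977_c0_g1_i4 at 16.8 in hypergravity and 0.27 in control, and TRINITY_DN1078_c0_g2_i4 at 5.66 in hypergravity and listed at 0 in control. These 3 have Setaria or maize hits, a class of which 96.7% of such transcripts were higher in hypergravity. The algal-hit TRINITY_DN102906_c0_g1_i1 was at 2.45 in hypergravity and 0.32 in control, and the goatgrass-hit isoform TRINITY_DN18538_c0_g1_i16 at 0.3 in hypergravity and listed at 0 in control. How many reads lie behind these values, and their spread between libraries, is unknown.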

How the results depend on the processing

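Without the mean-variance trend, 6622 transcripts and 3435 assembled genes were called lower, against 10928 and 5799 with it, and the methionine pathway had 3 higher and 10 lower, against 10 and 23. With hits in any species the pathway had 27 higher. Leaving out 1 library gave 8905 to 10635 transcripts higher and 6983 to 10804 lower, and 4557 to 5875 assembled genes higher and 3481 to 5671 lower. The pathway then had 3 to 8 higher and 13 to 22 lower. The log2 fold change of the summed gene ranged from 3.56 to 3.65 for TRINITY_DN1078_c0_g1, from 3.13 to 3.56 for TRINITY_DN18538_c0_g1, from 0.31 to 0.34 for TRINITY_DN18977_c0_g1 and from -0.08 to 0.38 for TRINITY_DN64413_c0_g1. With 1 library left in a group, that library is assumed to vary like the others. Each refit without a library also estimated its prior degrees of freedom anew. The cause of these changes was not tested. Named pathway transcripts kept their direction in all 120 refits, and in 16 of them a call was lost. No paired analysis was possible because the recovered libraries carry no replicate number.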
